A study of Mus musculus with 8 samples.

Results

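The genes described here encode the p38 mitogen-activated protein (MAP) kinase cascade, in mouse bone marrow-derived macrophages grown with or without serine and glycine. They are 10 of the 17492 genes in the deposited table, chosen by symbol from upstream kinases to substrates: Map3k5, Gadd45g, Map2k3, Map2k6, Mapk14, Mapk11, Mapk13, Mapkapk2, Mapkapk3 and Mef2a. Bone marrow-derived macrophages are cultured from marrow precursors, here of C57BL/6 mice. RNA was sequenced in 4 libraries from cells in medium lacking both amino acids, which the labels call serine deficiency, and in 4 libraries from untreated cells in normal medium. The series title names p38, IGF1 and macrophage polarization. The labels give no time in the medium, no stimulus and no sex or age of the mice. Nothing in them tells whether the 4 libraries of a group are separate cultures, separate mice or repeat preparations, so each p-value covers the spread among these libraries alone, and that spread may be technical.

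The p38 kinases sit at the base of a relay in which each kinase activates the next by phosphorylation. MAP kinase kinase kinases (MAP3Ks) respond to stress, cytokines or microbial products and activate the kinases MKK3 and MKK6, which activate p38. In macrophages, p38 and its target kinase MK2 are known for stabilizing the mRNAs of inflammatory mediators and allowing their translation. The relay runs on phosphorylation, so the mRNA levels given here say nothing of how active a kinase was.

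Library totals lay between 17565291 and 18201599 estimated counts, and a count of 0 allows up to 3 counts, or 0.165 to 0.171 CPM (counts scaled to a common library total). These floors cover counting error only. The groups were apart on the first principal component, which held 60.6% of the variance. The summed level of 8 macrophage markers was 18500 to 18800 CPM in serine/glycine-free libraries and 18500 to 19000 CPM in control libraries. All 8 markers were tested, so the labelled cell type had its markers. The similar sums hide changes in both directions. By edgeR 5 of the 8 were called higher and 3 lower, beside 15.9% higher and 17.3% lower over all genes. Itgam fell most, at a log2 change of -0.61, and Csf1r rose most, at 0.41. Of the other cell types, 9 neutrophil markers summed to 2.11 to 2.56 CPM in serine/glycine-free libraries and 0.938 to 1.40 CPM in control libraries. Most of that sum and of its difference was S100a8, at 1.87 CPM in serine/glycine-free libraries and 0.755 CPM in control libraries, and the other 8 averaged under 0.2 CPM each. The 5 B cell markers summed to 32.1 to 38.9 CPM in serine/glycine-free libraries and 43.5 to 51.3 CPM in control libraries, nearly all of it Cd79b. The 6 osteoclast markers, some of which macrophages express too, summed to 221 to 228 CPM in serine/glycine-free libraries and 227 to 239 CPM in control libraries. Dendritic, T and NK, mast cell, erythroid and stromal marker lists each stayed under 2 CPM in every library. The part of the neutrophil and B cell markers in the results was not tested, and in bulk RNA fewer cells of a type and less RNA per cell cannot be told apart.

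Without serine and glycine, the cascade did not move in a single direction. Gadd45g, Mef2a and Map2k3 transcripts rose, Map2k6, Mapk14 and Mapkapk2 fell, and Map3k5, Mapk11 and Mapkapk3 did not pass the threshold, an adjusted p of 0.05. Mapk13 was too low to be tested. Of the 9 members tested, 6 were called, or 66.7%, beside 33.2% of all 11700 genes tested. The 3 that rose stand beside 15.9% of all genes called higher and the 3 that fell beside 17.3% called lower. The same 6 of the 9 tested members had groups that did not overlap, or 66.7%, beside 30.6% of all genes tested. The members were chosen with earlier results of these data known, and no test compared these shares. The changes were small for most members. The log2 change of the median member was 0.03, beside 0.01 over all genes, and the absolute change placed Gadd45g and Map2k6 at percentiles 98.5 and 97.8 of all genes, Mef2a at 86.4, Map2k3 at 75.3, Mapk14 at 74.0 and Mapkapk2 at 48.7. Tests were edgeR's quasi-likelihood F test with Benjamini-Hochberg adjustment over all genes, and all fold changes are serine/glycine-free over control.

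**Figure D1:**
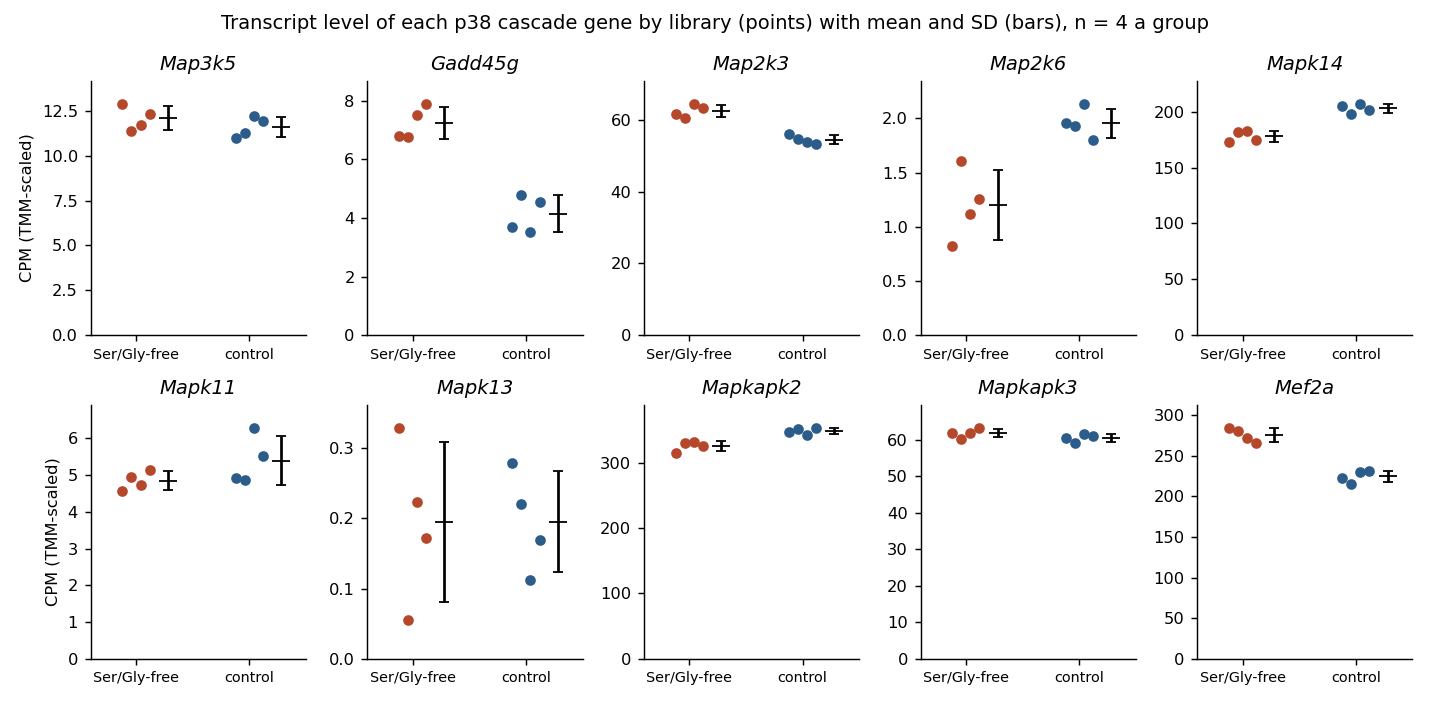
Transcript level in CPM of each of the 10 genes, 1 point a library, with serine/glycine-free libraries on the left and control libraries on the right of each panel, and the mean and SD as bars (n = 4 a group). The points of the groups are apart for Gadd45g, Map2k3 and Mef2a, which lie higher without serine and glycine, and for Map2k6, Mapk14 and Mapkapk2, which lie lower.

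Map3k5 encodes ASK1, a MAP3K that is held inactive by bound thioredoxin and is freed under oxidative stress. It lies on chromosome 10 at 19934101 to 20142750 (GRCm38.p6, as are all positions here). Its level was 12.9, 11.4, 11.7 and 12.3 CPM in serine/glycine-free libraries and 11.01, 11.3, 12.2 and 11.9 CPM in control libraries. The groups overlapped, with a log2 change of 0.06 (SE 0.07, edgeR adjusted p = 0.585), and the 95% interval of the fold ran from 0.940 to 1.16.

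Gadd45g had the largest rise among the members. It encodes a stress-induced protein of the GADD45 family, whose members bind and activate the MAP3K4 kinase upstream of p38, and lies on chromosome 13 at 51846675 to 51848475. Its level was 6.80, 6.77, 7.52 and 7.89 CPM in serine/glycine-free libraries and 3.69, 4.80, 3.53 and 4.56 CPM in control libraries. Every serine/glycine-free library was above every control library. The mean was 7.24 ± 0.551 CPM in serine/glycine-free libraries and 4.14 ± 0.627 CPM in control libraries (SD, n = 4 each), a log2 change of 0.80 (SE 0.11) and a 1.74-fold rise with a 95% interval of 1.495 to 2.04 (edgeR adjusted p = 9.9e-08). These values rest on 122 to 138 counts a library without serine and glycine and 63 to 87 counts in control libraries.

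The other members of the GADD45 family did not show this change. Gadd45a lay between 9.74 and 10.98 CPM in serine/glycine-free libraries and between 8.72 and 10.3 CPM in control libraries (log2 change 0.08, edgeR adjusted p = 0.490). Gadd45b lay between 29.6 and 32.1 CPM in serine/glycine-free libraries and between 29.2 and 32.4 CPM in control libraries (log2 change 0.02, edgeR adjusted p = 0.818). Both sets of libraries overlapped, and the difference in response between Gadd45g and these relatives was not itself tested. Gadd45gip1, whose protein is a partner of the GADD45 proteins, rose by a log2 of 0.23 (edgeR adjusted p = 0.0024).

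The promoters of the 2 members with the largest rises by fold and of the gene for the main p38 kinase are shown here and with those genes, from 250 bases before the transcript start to 50 after it, from RefSeq on GRCm38.p6, which held all 10 members. In the Gadd45g promoter, at chr13:51846425-51846724 on the plus strand, the capitals mark in order an E-box (CACGTG), a match on the opposite strand to the element TGATGNAA bound by ATF4, and a TATA box (TATAAA).
Gadd45g: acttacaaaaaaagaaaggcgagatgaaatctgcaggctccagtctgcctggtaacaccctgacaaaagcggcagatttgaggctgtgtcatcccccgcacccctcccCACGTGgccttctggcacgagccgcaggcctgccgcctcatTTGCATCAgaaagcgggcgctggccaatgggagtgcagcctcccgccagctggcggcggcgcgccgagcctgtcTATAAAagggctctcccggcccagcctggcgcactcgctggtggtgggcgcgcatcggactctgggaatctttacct
Counted from the transcript start as position 1, with -1 just before it, these lie at -142 to -137, -101 to -94 and -27 to -22. On either strand, the E-box was in 7.15%, the ATF4 element in 3.97% and the TATA box in 13.6% of 32851 promoters of the same length. The match to the ATF4 element shares bases with an octamer-like stretch that was not searched. Of 7 motifs searched, the other 4 were a MEF2 consensus, AP-1 (TGANTCA), a cyclic AMP response element core (TGACGTC) and a GC box (GGGCGG), and none of these 4 was in this window. A match describes letters and shows no binding.

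The 2 MAP kinase kinases that act on p38 moved in opposite directions. Map2k3 encodes MKK3 and lies on chromosome 11 at 60932054 to 60952811. Its level was 61.7, 60.6, 64.4 and 63.2 CPM in serine/glycine-free libraries and 56.1, 54.8, 54.0 and 53.2 CPM in control libraries. The groups did not overlap, at a mean of 62.5 ± 1.66 CPM in serine/glycine-free libraries and 54.5 ± 1.27 CPM in control libraries (SD, n = 4 each), and Map2k3 rose by a log2 of 0.20 (SE 0.04, edgeR adjusted p = 6.6e-05). That is 1.15-fold, with a 95% interval of 1.09 to 1.21.

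Map2k6 encodes MKK6, the paralog of MKK3, and lies on chromosome 11 at 110399102 to 110525522. Its counts were low, with 15, 29, 20 and 22 counts in serine/glycine-free libraries and 35, 35, 38 and 32 counts in control libraries. Those counts correspond to 0.822, 1.61, 1.11 and 1.26 CPM in serine/glycine-free libraries and to 1.96, 1.93, 2.13 and 1.80 CPM in control libraries. All 4 serine/glycine-free libraries were below all 4 control libraries, and the serine/glycine-free libraries were the more spread. Map2k6 fell, with a log2 change of -0.70 (SE 0.20, edgeR adjusted p = 0.0055) and a fold of 0.615 whose 95% interval ran from 0.464 to 0.815. The adjusted p rose to at most 0.0402 when single libraries were left out.

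Within each library, Map2k3 exceeded Map2k6 per length by 42.2 to 84.0 times in serine/glycine-free libraries and by 28.3 to 33.1 times in control libraries. The ranges were apart. The log2 ratio was higher by 0.94 (SE 0.21, 95% interval 0.42 to 1.46) in serine/glycine-free libraries. Its two-sided exact permutation p was 0.0286, the smallest that 4 against 4 libraries allow. After Benjamini-Hochberg adjustment over the 6 pairs of genes compared it was 0.0429. Map2k3 was already apart upward and Map2k6 apart downward, so their ratio had to separate. This p was therefore fixed by the separation of each gene and is no further evidence. The third MAP kinase kinase of the list, Map2k4, whose product acts mainly on JNK and can act on p38, had a log2 change of 0.03 and did not pass.

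Mapk14, which encodes p38 alpha, the main p38 kinase of macrophages, fell slightly and with little spread. It lies on chromosome 17 at 28691342 to 28748405. Its level was 173, 182, 182 and 175 CPM in serine/glycine-free libraries and 206, 198, 207 and 201 CPM in control libraries. The highest serine/glycine-free library lay below the lowest control library. The mean was 178 ± 4.79 CPM in serine/glycine-free libraries and 203 ± 3.85 CPM in control libraries (SD, n = 4 each), a log2 change of -0.19 (SE 0.03, edgeR adjusted p = 5.1e-07). The fold was 0.877, with a 95% interval of 0.843 to 0.912. Leaving out any single library gave log2 changes between -0.20 and -0.17.

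The Mapk14 promoter shown lies at chr17:28691092-28691391 on the plus strand, and the capitals mark a GC box read on the opposite strand, at -31 to -26.
Mapk14: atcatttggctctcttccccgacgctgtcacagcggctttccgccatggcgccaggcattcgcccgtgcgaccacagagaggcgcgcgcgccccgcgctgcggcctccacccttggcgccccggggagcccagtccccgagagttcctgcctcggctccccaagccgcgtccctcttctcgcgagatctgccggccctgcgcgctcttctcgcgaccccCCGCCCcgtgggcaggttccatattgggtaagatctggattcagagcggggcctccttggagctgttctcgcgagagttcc
The GC box was in 35.7% of promoters of this length. None of the other 6 motifs was found in this window. RefSeq also holds a Mapk14 start 1226 bases inside the gene, whose promoter at chr17:28692318-28692617 is not shown and matched no motif searched.

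The other p38 genes were far lower. Mapk11 encodes p38 beta and lies on chromosome 15 at 89142482 to 89149606. Its level was 4.55, 4.94, 4.73 and 5.14 CPM in serine/glycine-free libraries and 4.92, 4.85, 6.28 and 5.51 CPM in control libraries. The groups overlapped, with a log2 change of -0.16 (SE 0.11, edgeR adjusted p = 0.301) and a 95% interval of the fold from 0.769 to 1.05. Control replicate 3 was the highest library, and without it the log2 change was -0.07. Mapk14 over Mapk11 within libraries was 23.3 to 26.4 in serine/glycine-free libraries and 22.6 to 28.6 in control libraries, a log2 difference of -0.04 (SE 0.09, 95% interval -0.26 to 0.18, exact permutation p = 0.657, adjusted p = 0.789), so a difference in response between these paralogs was not detectable here.

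Mapk13 encodes p38 delta and lies on chromosome 17 at 28769286 to 28778704, 20880 bases from Mapk14. It had 6, 1, 4 and 3 counts in serine/glycine-free libraries and 5, 4, 2 and 3 counts in control libraries, so it stayed below the filter of edgeR and has no adjusted p. The summed counts were 14 in each group, a ratio of 0.999 with a counting interval of 0.441 to 2.26, which covers counting error only. Mapk12, the gene for p38 gamma, is not among the 10 genes and had 13 counts over serine/glycine-free libraries and 14 over control libraries (ratio 0.927, counting interval 0.401 to 2.13). At this depth, changes in Mapk12 and Mapk13 within those intervals could not be seen.

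Per length, Mapk14 made up nearly all p38 kinase transcript. The sum of the 4 p38 genes was 55.5 ± 1.40 CPM per kilobase in serine/glycine-free libraries and 63.2 ± 1.31 CPM per kilobase in control libraries (SD, n = 4 each). Mapk14 contributed 95.7% ± 0.206 of it in serine/glycine-free libraries and 95.8% ± 0.400 in control libraries, and Mapk11 contributed 3.80% ± 0.207 in serine/glycine-free libraries and 3.71% ± 0.401 in control libraries. These shares differed by less than the spread between libraries.

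Mapkapk2 encodes MK2, the kinase through which p38 acts on the mRNA-binding protein tristetraprolin and so on the mRNAs of inflammatory mediators. It lies on chromosome 1 at 131053700 to 131097871 and had the highest level of the 10 genes. Its level was 315, 331, 332 and 326 CPM in serine/glycine-free libraries and 346, 352, 342 and 353 CPM in control libraries. The groups were apart by a narrow margin. The mean was 326 ± 7.68 CPM in serine/glycine-free libraries and 348 ± 4.89 CPM in control libraries (SD, n = 4 each), and Mapkapk2 fell, with a log2 change of -0.10 (SE 0.03, edgeR adjusted p = 0.0025). The fold was 0.935, with a 95% interval of 0.902 to 0.969.

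Mapkapk3 encodes MK3, a close relative of MK2 with overlapping substrates, and lies on chromosome 9 at 107254927 to 107289877. Its level was 61.9, 60.3, 61.8 and 63.2 CPM in serine/glycine-free libraries and 60.4, 59.0, 61.6 and 60.9 CPM in control libraries. The groups overlapped (log2 change 0.03, SE 0.04, edgeR adjusted p = 0.567), and the 95% interval of the fold, 0.970 to 1.08, includes no change. The ratio of the pair was apart between the groups. Mapkapk2 over Mapkapk3 was 4.85 to 5.23 per length in serine/glycine-free libraries and 5.30 to 5.68 in control libraries. The log2 difference was -0.13 (SE 0.03, 95% interval -0.21 to -0.05, exact permutation p = 0.0286, adjusted p = 0.0429). That permutation p is the smallest the test allows. The adjusted p also rests on pairs whose p was fixed by the separation of each gene. It therefore does not settle whether the response of the pair differed.

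Mef2a rose with the smallest adjusted p of the members. It encodes a MADS-box transcription factor that p38 phosphorylates and activates, and lies on chromosome 7 at 67231163 to 67376456. Its level was 285, 281, 271 and 266 CPM in serine/glycine-free libraries and 223, 216, 229.6 and 231 CPM in control libraries. The lowest serine/glycine-free library was above the highest control library. The mean was 276 ± 8.71 CPM in serine/glycine-free libraries and 225 ± 7.14 CPM in control libraries (SD, n = 4 each), a log2 change of 0.29 (SE 0.03, edgeR adjusted p = 1.4e-11) and a 1.23-fold rise with a 95% interval of 1.18 to 1.28. Exons of Mef2a overlap those of Lysmd4 on the opposite strand, and the sources used here do not say whether counting used strand. Lysmd4 had 9.58 ± 1.01 CPM in serine/glycine-free libraries and 9.17 ± 0.494 CPM in control libraries (SD, n = 4 each), with a log2 change of 0.06 (edgeR adjusted p = 0.624).

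Its tested relatives went the other way. Mef2b, a further relative, was too low to be tested, at 0.154 CPM in serine/glycine-free libraries and 0.0419 CPM in control libraries. Mef2c and Mef2d, also MEF2 factors, are not among the 10 genes and were picked after their values were seen. Mef2c lay between 55.0 and 57.2 CPM in serine/glycine-free libraries and between 59.9 and 64.4 CPM in control libraries (log2 change -0.14, edgeR adjusted p = 0.0042). Mef2d lay between 184 and 205 CPM in serine/glycine-free libraries and between 208 and 223 CPM in control libraries (log2 change -0.16, edgeR adjusted p = 5.1e-05). Neither pair of groups overlapped, and both genes fell while Mef2a rose. The difference in response within the family was not itself tested.

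The Mef2a promoter in the table lies at chr7:67372809-67373108 on the minus strand, for a transcript start 3598 bases inside the annotated 5′ end of the gene. The capitals mark a match to the MEF2 consensus, the sequence that MEF2 factors bind, at -2 to 8.
Mef2a: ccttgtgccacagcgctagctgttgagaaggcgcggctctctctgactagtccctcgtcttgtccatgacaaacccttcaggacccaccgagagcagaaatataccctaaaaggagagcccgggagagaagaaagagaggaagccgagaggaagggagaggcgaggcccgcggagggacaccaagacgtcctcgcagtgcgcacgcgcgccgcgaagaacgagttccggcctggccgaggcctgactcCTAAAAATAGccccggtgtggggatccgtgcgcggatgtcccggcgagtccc
The MEF2 consensus was in 3.19% of promoters of this length on either strand. Whether a MEF2 factor binds there was not measured, and none of the other 6 motifs was found in this window.

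**Figure D2:**
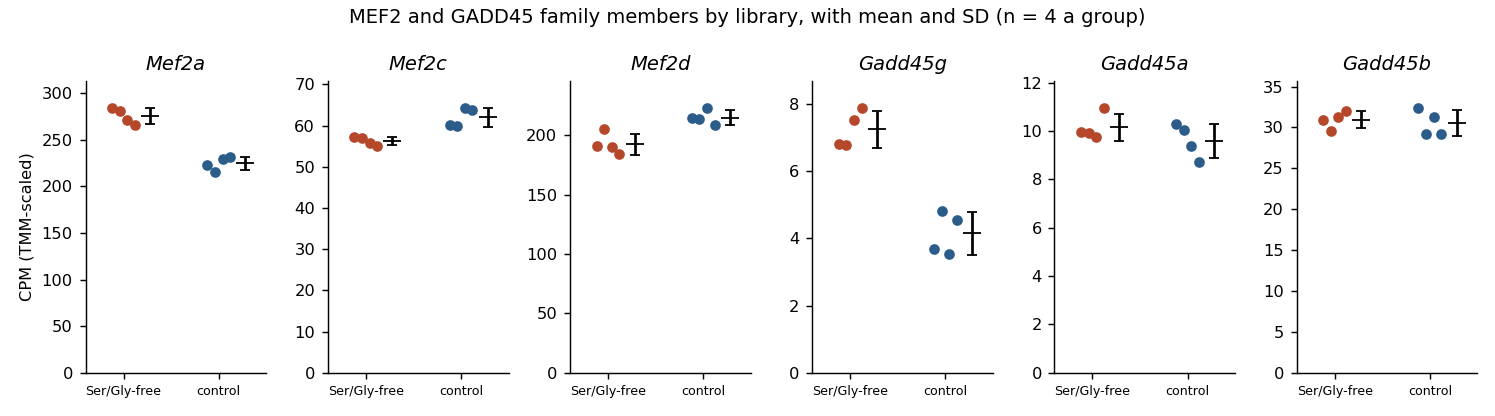
Transcript level in CPM of MEF2 and GADD45 family members, 1 point a library, serine/glycine-free on the left and control on the right of each panel, with mean and SD as bars (n = 4 a group). Mef2a lies higher and Mef2c and Mef2d lie lower in serine/glycine-free libraries, and the groups are apart for Gadd45g but overlap for Gadd45a and Gadd45b.

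Levels per length put the genes in nearly the same order in both media. In serine/glycine-free libraries Mapkapk2 came first at 120 ± 2.82 CPM per kilobase, followed by Mapk14 at 53.1 ± 1.43 and Mef2a at 51.2 ± 1.62 CPM per kilobase (SD, n = 4). In control libraries Mapkapk2 had 128 ± 1.79, Mapk14 60.6 ± 1.15 and Mef2a 41.8 ± 1.33 CPM per kilobase (SD, n = 4). The ranges of Mapk14 and Mef2a overlapped without serine and glycine, at 51.5 to 54.4 for Mapk14 and 49.3 to 52.9 for Mef2a, and were apart in control libraries, at 59.2 to 61.7 for Mapk14 and 40.1 to 43.0 for Mef2a. Map2k3, Mapkapk3 and Gadd45g followed, at 31.0, 23.8 and 7.76 CPM per kilobase in serine/glycine-free libraries and at 27.0, 23.3 and 4.44 CPM per kilobase in control libraries. Map3k5 and Mapk11 came next, at 2.27 and 2.11 CPM per kilobase in serine/glycine-free libraries and at 2.18 and 2.35 CPM per kilobase in control libraries, and their ranges overlapped in both groups. Map2k6 and Mapk13 were lowest, at 0.531 and 0.159 CPM per kilobase in serine/glycine-free libraries and at 0.865 and 0.159 CPM per kilobase in control libraries.

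**Figure D3:**
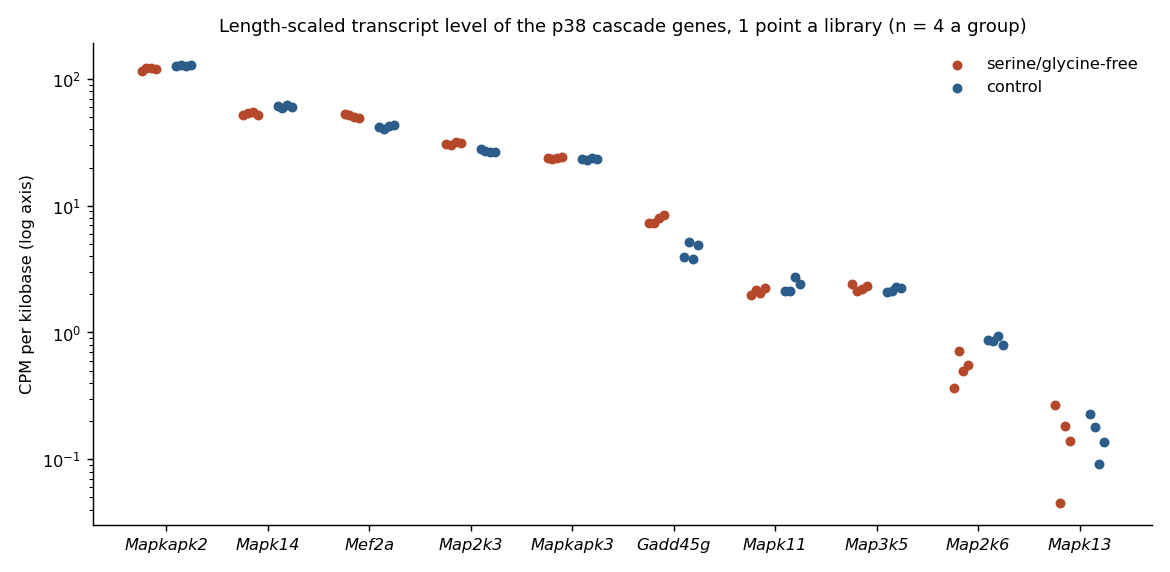
Level of each gene in CPM per kilobase of effective length on a log axis, 1 point a library (n = 4 a group), with serine/glycine-free libraries left of control libraries. Mapkapk2 is highest in both groups and Mapk13 lowest, and Mapk14 and Mef2a overlap only among the serine/glycine-free libraries.

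Along the chain, the p38 alpha transcript fell relative to both the Map2k3 kinase above it and the Mapkapk2 kinase below it. Mapk14 over Map2k3 was 1.67 to 1.81 per length in serine/glycine-free libraries and 2.18 to 2.31 in control libraries, a log2 difference of -0.39 (SE 0.03, 95% interval -0.47 to -0.31). Mapk14 over Mapkapk2 was 0.437 to 0.447 in serine/glycine-free libraries and 0.459 to 0.491 in control libraries, a log2 difference of -0.09 (SE 0.02, 95% interval -0.15 to -0.03). For each ratio the groups did not overlap, and the two-sided exact permutation p was 0.0286, or 0.0429 adjusted over the 6 pairs. For Mapk14 over Map2k3 this p was fixed beforehand, since both genes were already apart in opposite directions. The adjusted p of the pairs not fixed in this way also rests on the fixed ones. Mapk14 over Mapk13 had a log2 difference of 0.00 with a 95% interval from -1.55 to 1.54, too wide to bear on either direction.

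**Figure D4:**
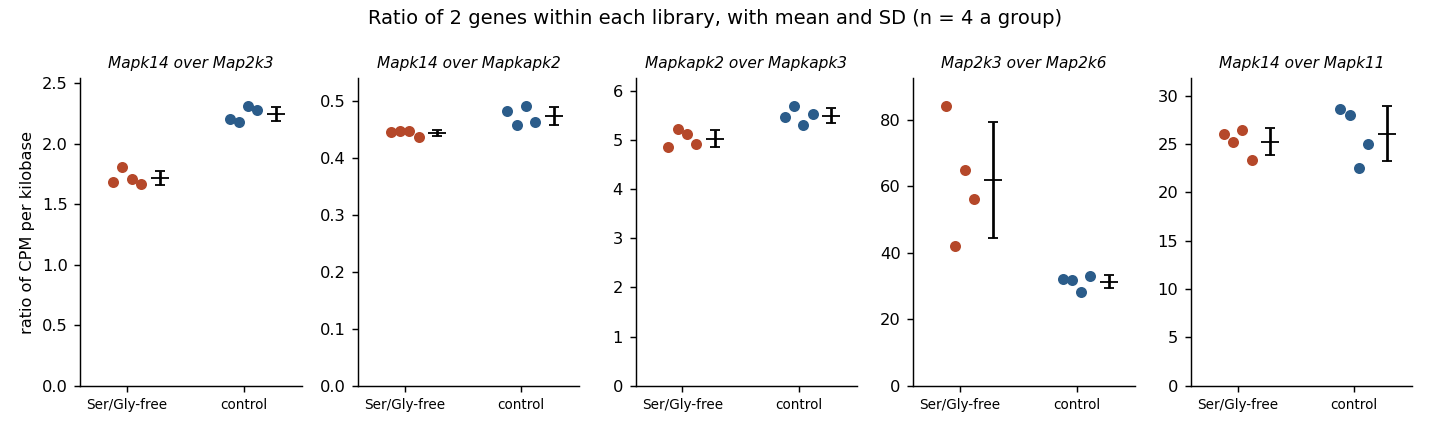
Ratio of the CPM per kilobase of 5 of the 6 pairs of genes within each library, serine/glycine-free on the left and control on the right of each panel, with mean and SD as bars (n = 4 a group). The groups are apart for the first 4 ratios, with Map2k3 over Map2k6 higher and the other 3 lower without serine and glycine, and overlap for Mapk14 over Mapk11.

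Genes of the wider p38 pathway, from lists by role drawn up with earlier results of these data known, fell more often than they rose. Without the 10 genes, 7 of the 70 tested rose, or 10%, and 24 fell, or 34.3%, while 39 did not pass. All genes stood at 15.9% higher and 17.3% lower, and the median log2 change of the 70 was -0.05, beside 0.01 over all genes. With a fold of at least 1.2 asked in addition, 2 rose and 1 fell, so most of these changes were small.

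Among 22 tested MAP3Ks and their adaptors, 8 fell, or 36.4%, beside 17.3% of all genes. By edgeR 0 rose, beside 15.9% of all genes, with 1 higher at an unadjusted p under 0.05 and 0 by DESeq2 and by limma-voom. Neither this list nor those below were tested against the shares of all genes. Map3k1, which encodes MEKK1, fell by a log2 of 0.23 (edgeR adjusted p = 1.1e-05). Map3k8, which encodes TPL2, the kinase that couples Toll-like receptors to ERK in macrophages, fell by 0.21 (edgeR adjusted p = 3.1e-05). Map3k4, the kinase that GADD45 proteins bind, fell by 0.17 (edgeR adjusted p = 0.0053). Of 10 tested genes whose products regulate ASK1 or the redox proteins around it, 3 rose and 2 fell. These are 30% and 20% of the list, beside 15.9% higher and 17.3% lower over all genes. Prdx1, a peroxiredoxin that removes hydrogen peroxide, rose by 0.47 on the log2 scale, at 1596 ± 55.2 CPM in serine/glycine-free libraries and 1150 ± 12.4 CPM in control libraries (SD, n = 4 each, edgeR adjusted p = 9.4e-21). Txn1, the thioredoxin that binds ASK1, rose by 0.22 (edgeR adjusted p = 7.0e-07) and Glrx, a glutaredoxin, by 0.19 (edgeR adjusted p = 1.9e-07). Txnip, whose product binds and inhibits thioredoxin, fell by 0.24 (edgeR adjusted p = 1.7e-10), and Ywhaz, a 14-3-3 protein gene, fell by 0.11 (edgeR adjusted p = 0.00044).

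Of the 7 kinases activated by p38, 1 rose and 3 fell, Mapkapk2 among them. That is 14.3% higher and 42.9% lower, beside 15.9% and 17.3% of all genes. Mknk2, a kinase that phosphorylates the translation factor eIF4E, rose by a log2 of 0.13 (edgeR adjusted p = 0.00023), and its paralog Mknk1 fell by 0.11 (edgeR adjusted p = 0.0133, but 0.0776 without control replicate 2). Rps6ka4, which encodes the histone kinase MSK2, fell by 0.21 (edgeR adjusted p = 1.4e-05). Of 12 tested transcription factors that p38 phosphorylates, 1 rose, Mef2a, and 6 fell, or 8.33% and 50%, beside the same shares of all genes. With library size alone as the scaling, or without control replicate 4, 2 rose. Usf1, an E-box-binding factor, fell by 0.19 (edgeR adjusted p = 0.00017). Elk1 fell by 0.17 and Elk4 by 0.23, both partners of serum response factor (edgeR adjusted p = 0.0097 for each), and both lost the call without serine/glycine-free replicate 3 or without control replicate 3, at adjusted p of 0.0864 and 0.0559 for Elk1 and 0.0542 and 0.0944 for Elk4.

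Of 8 tested mRNA-binding and other substrates of p38 and MK2, 3 fell, or 37.5%, beside 17.3% of all genes. By edgeR 0 rose, also 0 at an unadjusted p under 0.05, by DESeq2 and by limma-voom, beside 15.9% of all genes. Hnrnpa0, which binds AU-rich mRNAs, fell by 0.20 (edgeR adjusted p = 3.5e-05), Pabpc1, the poly(A)-binding protein gene, by 0.15 (edgeR adjusted p = 4.4e-07), and Zfp36l1, a relative of tristetraprolin, by 0.13 (edgeR adjusted p = 0.0099, but 0.0824 without control replicate 3). Zfp36, which encodes tristetraprolin itself, had a log2 change of 0.00 and did not pass.

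Of 11 phosphatases that act on p38 or other MAP kinases, 2 rose and 3 fell. These shares, 18.2% and 27.3%, stand beside 15.9% higher and 17.3% lower over all genes. Dusp4, an inducible nuclear phosphatase of MAP kinases, had the largest change, at 19.7 ± 1.56 CPM in serine/glycine-free libraries and 12.6 ± 0.754 CPM in control libraries (SD, n = 4 each, log2 change 0.65, edgeR adjusted p = 1.5e-10). Dusp1, the phosphatase that ends p38 signalling after inflammatory stimuli in macrophages, rose by 0.19 (edgeR adjusted p = 3.5e-05). Dusp16, which acts on JNK and p38, fell by 0.29 (edgeR adjusted p = 1.8e-05) and Ptpn7, a tyrosine phosphatase of ERK and p38, by 0.24 (edgeR adjusted p = 2.0e-07). Dusp2 fell by 0.23 (edgeR adjusted p = 0.0295). The Dusp2 call was lost by DESeq2 (adjusted p = 0.0966) and in 5 of the 8 fits that left out a single library. These were the fits without serine/glycine-free replicate 1 (0.0725), 3 (0.088) or 4 (0.0567) and without control replicate 2 (0.051) or 3 (0.137).

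**Figure D5:**
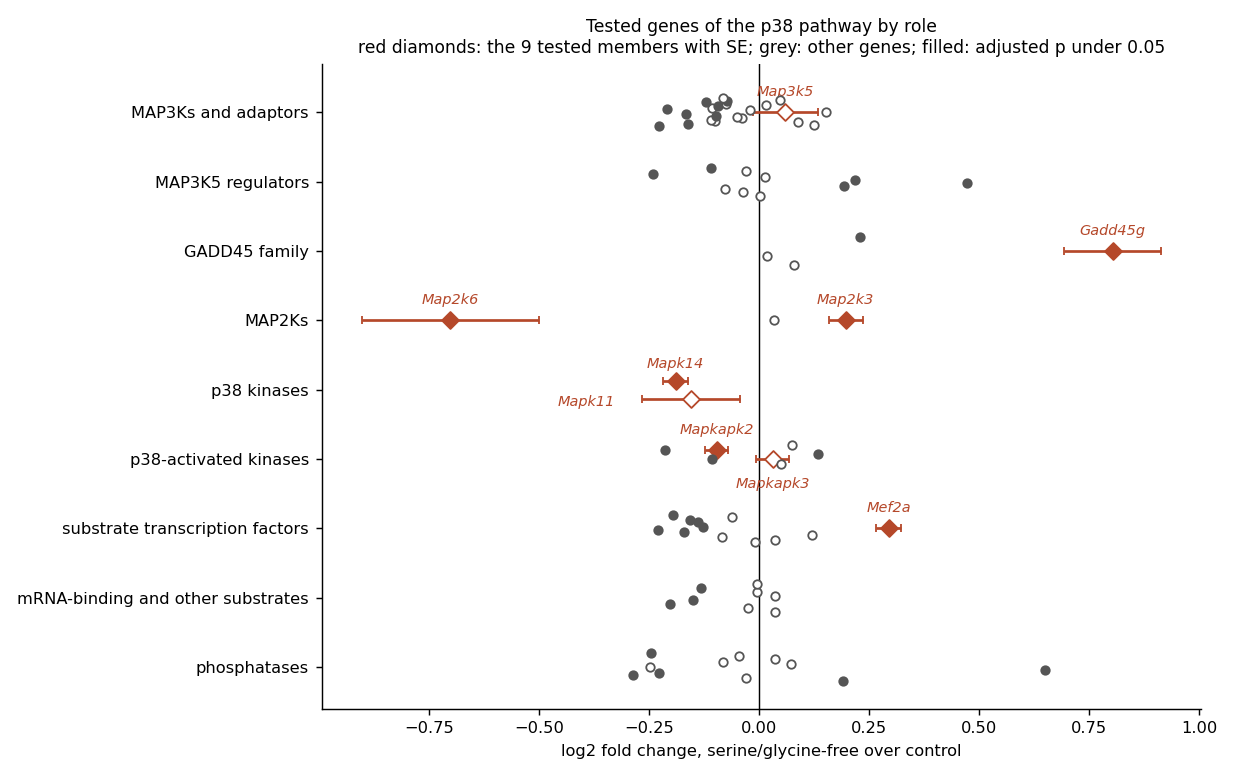
Log2 fold change, serine/glycine-free over control, of the tested genes of the p38 pathway by role, with the 9 tested members as red diamonds with SE bars, the other genes as grey circles, and filled symbols for an adjusted p under 0.05. Gadd45g at 0.80 and Map2k6 at -0.70 lie farthest from 0, and the filled grey circles lie mostly left of 0.

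The neighbouring MAP kinase branches stood at 22.2% called for JNK and 26.3% for ERK, beside 33.2% of all genes, and their difference from the p38 lists was not tested. Of 9 tested genes of the JNK branch, 1 rose and 1 fell, both of them AP-1 subunits. Without serine/glycine-free replicate 2, 2 fell. Junb rose by a log2 of 0.35 (edgeR adjusted p = 1.5e-06) and Jun fell by 0.13 (edgeR adjusted p = 0.0004). Of 19 in the ERK branch, 5 fell, or 26.3%, beside 17.3% of all genes, and 0 rose by edgeR, with 1 higher at an unadjusted p under 0.05 and 0 by DESeq2 and by limma-voom. The 5 became 3 without control replicate 3, and 1 rose without serine/glycine-free replicate 3, without control replicate 1 or with library size alone as the scaling. Sos1, the exchange factor that activates Ras, fell by 0.60 (edgeR adjusted p = 2.9e-17), and Ksr1, a scaffold of the ERK cascade, fell by 0.48 (edgeR adjusted p = 3.0e-06). Rps6ka1, which encodes the ERK-activated kinase RSK1, fell by 0.18 (edgeR adjusted p = 4.8e-07). Of 10 tested transcripts known to be stabilized through MK2, 3 rose and 2 fell, or 30% and 20%, beside 15.9% and 17.3% of all genes. But 0 fell without serine/glycine-free replicate 3, without control replicate 1 or without control replicate 3. With any other single library left out, 1 or 2 fell. Cxcl1 and Cxcl2, which encode neutrophil chemoattractants, rose by 0.76 and 0.28 (edgeR adjusted p = 0.0068 for Cxcl1 and 0.00013 for Cxcl2), with Cxcl1 at only 1.59 CPM in serine/glycine-free libraries and 0.936 CPM in control libraries. Ier3, an immediate-early gene, rose by 0.36 (edgeR adjusted p = 2.5e-07). Il10, the gene of an anti-inflammatory cytokine, fell by 0.15 (edgeR adjusted p = 0.0184). That call was lost by DESeq2 (adjusted p = 0.0555) and without serine/glycine-free replicate 3 (0.0667), control replicate 1 (0.0534) or control replicate 3 (0.0939). Tnf, the best-known of these transcripts, had 258 ± 4.72 CPM in serine/glycine-free libraries and 271 ± 1.68 CPM in control libraries (SD, n = 4 each), a log2 change of -0.07 (edgeR adjusted p = 0.0378). The Tnf call was lost in 7 of the 8 fits that left out a single library, all but that without serine/glycine-free replicate 2, with adjusted p up to 0.0936. It was also lost with library size alone as the scaling (adjusted p = 0.083) and with the replicate number as a block (adjusted p = 0.0774).

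Over the 8 libraries, the genes whose centred log2 profile lay closest to that of Mapk14, among 9750 ranked, were Atxn7l1, Trib1 and Kif3b, with root-mean-square differences of 0.0175, 0.0189 and 0.022. Their log2 changes were -0.17 for Atxn7l1, -0.20 for Trib1 and -0.18 for Kif3b. Profiles were centred on the control mean, so a change near that of Mapk14 was built into the choice of these genes.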

How the data were processed

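Total RNA of mouse bone marrow-derived macrophages was isolated with Trizol and libraries were made with oligo-dT beads, as the labels' protocols state. The authors deposited estimated counts, FPKM and TPM for each of 8 libraries. Per the submitters' processing notes, BWA, Bowtie2, RSEM and the build GRCm38.p6 were used. Their versions, the strand setting and any filters are not stated there. Values off a whole number by over 1e-06 made up 8.06% to 8.47% of each library's estimated counts as deposited, and all were rounded. Those of the 10 genes were whole as deposited. FPKM, scaled by the authors per length and library, served only to derive effective lengths. TPM, as deposited by the authors, entered no main test. It served only as an alternative for the gene ratios, with their permutation test, and for the Mapk14 share of p38 transcript. The 6 columns of the authors' group averages were left aside.

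The 10 genes and the lists were chosen with earlier results of these data known. Genes passing edgeR's filter (minimum count 10, minimum total 15) numbered 11700. CPM uses library sizes scaled by TMM. The test was the robust quasi-likelihood F test of edgeR 4.0.16 (R 4.3.3), 4 libraries against 4, with Benjamini-Hochberg adjustment at 0.05. SE and 95% intervals of single genes come from that fit, and intervals for sums of counts are conditional exact ones. Ratios of genes were compared by exact permutation of the log2 ratio. Their SE and 95% intervals are t intervals with 6 degrees of freedom, from a variance pooled over both groups. That takes the spreads as equal, though the log2 ratio of Map2k3 over Map2k6 had an SD of 0.414 in serine/glycine-free libraries and 0.0976 in control libraries. From each wider list, up to 3 genes past 0.05 with the largest log2 change in either direction are named. Map2k4, Zfp36, Mef2b, Mef2c, Mef2d, Gadd45a and Gadd45b were picked otherwise, these MEF2 and GADD45 genes after their values were seen. Likeness to Mapk14 used log2 of CPM plus 0.5.

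Alternatives were DESeq2 1.42.0, limma-voom (limma 3.58.1), other scalings and filters, removal of a length trend, a stricter p, a fold of 1.2, the replicate block and leaving out each library. For gene ratios and the Mapk14 share, deposited TPM was another. When the test was tested on simulated data, the share of false calls lay above the nominal level and part of the 1.2-fold changes were missed.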

Additional observations from a re-analysis of the deposited data

Results flagged for a closer look

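The ratio of Mapk14 to Mapkapk2 was flagged because replicate 4 of the serine/glycine-free group stood apart from the other 3 libraries of that group. Its ratio was 0.437, and the others lay between 0.446 and 0.447. The gap took up 0.88 of the range of the group, above Dixon's 95% critical value for 4 libraries. Of 36 groups of values screened this was the only one, and chance flags about 1 in 20 groups. The 4 control libraries lay between 0.459 and 0.491, and the log2 difference between the groups was between -0.11 and -0.08 when single libraries were left out.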

How the results depend on the processing

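Of the log2 changes and gene ratios followed under the alternatives, none changed direction apart from some near 0 that did not pass. The balance of counts did turn. Over all genes, 1855 were higher and 2027 lower in the main fit, but 2026 higher and 1850 lower with library size alone. A fold of at least 1.2 turned it too, for all genes and for the wider pathway, which had 7 higher and 24 lower in the main fit. The calls of the 9 tested genes held under every scaling, filter, tool and left-out library tried, except that Map2k6 could not be fitted under the filter of 5 CPM. Over left-out libraries the log2 changes ranged from 0.73 to 0.88 for Gadd45g, -0.88 to -0.55 for Map2k6 and 0.27 to 0.31 for Mef2a. A fold of at least 1.2 ended the calls of Mapk14 (-0.19), Map2k3 (0.20) and Mapkapk2 (-0.10), which left 1 member lower. It left 816 genes higher and 584 lower of all genes, and 2 higher and 1 lower of the wider pathway. Calls of named genes of the wider lists and MEF2 relatives were lost 55 times, counting each gene under each alternative, the fold of 1.2 included.

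Replicate numbers are shared by the groups. The correlations of same-numbered libraries were -0.10, 0.03, 0.11 and -0.16, and those of differently numbered libraries ran from -0.17 to 0.19. These values show no pairing by number, but correlations this weak cannot settle whether libraries were paired. With the replicate block, 1771 genes were higher and 1884 lower, and 3 members were higher and 3 lower. The 4 ratios of genes that passed had p = 0.125 in a sign-flip permutation over 4 pairs, the smallest it allows. Depth limits Mapk13, Mapk12 and Map2k6.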
